A study of Mus musculus with 4 samples.

Results

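The 10 genes described here, Atf4, Atf3, Ddit3, Asns, Psat1, Phgdh, Sesn2, Ddit4, Trib3 and Chac1, are turned on when cells run short of amino acids or when proteins misfold in the endoplasmic reticulum (ER). They were chosen by name, with earlier results of these arrays known, out of 19938 genes on the array. Each is represented by 1 probe set that the platform annotation assigns to that gene alone. RNA came from 2 mouse tumour cell lines, called 167 and 365 in the labels. Each grew out of a soft tissue tumour that had lost Smarcb1, in a p53-null mouse of C57BL6/SV129J background. The SMARCB1 protein belongs to the core of SWI/SNF, a complex that remodels chromatin. Cells received either Smarcb1 in the pMIG retrovirus or empty pMIG, and total RNA was taken 3 days later, 1 array per line and vector, 4 arrays in all. Cells of all 4 groups therefore lack p53, and those with empty vector are labelled as deficient in Smarcb1. The labels mention no selection of infected cells, and each line stands for 1 tumour. All 4 groups carry the same medium in their labels, which contained L-glutamine and non-essential amino acids. The labels explain the early time point as a way to favour genes directly controlled by Smarcb1.

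Uncharged transfer RNA, misfolded ER proteins and some other stresses activate kinases that phosphorylate the initiation factor eIF2. General translation then falls while Atf4 mRNA is translated more, and the ATF4 protein switches on genes for amino acid synthesis, uptake and transfer RNA charging. Prolonged activity adds the transcription factors CHOP (encoded by Ddit3) and ATF3, the feedback regulator TRIB3 and the glutathione-degrading enzyme CHAC1. Much of ATF4's control is translational, so its mRNA level shows only part of its activity. ATF4 acts with C/EBP partners on a composite element whose core is spelled TGATGNAA.

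The promoter windows below are shown because that element lies in some of these genes and not in others. RefSeq windows (build GRCm38.p6) of 250 bases before and 50 after a transcript start were found for all 10 genes, 11 windows in all since Psat1 has 2 starts. TGATGNAA, searched on both strands, occurred in the windows of 4 genes, Asns, Atf3, Chac1 and Trib3, against 3.97% of all 32851 windows. The related letters TGGTGCAA, chosen after the windows had been read and also searched on both strands, occurred in Psat1 and Trib3, against 0.536% of all windows. TNACGTCA, a spelling of the CRE-type site bound by ATF and CREB proteins, was found in Atf3 alone among the 10 genes and in 2.93% of windows. Capitals mark these matches. In Asns the match spans positions -23 to -16 from the start, in Chac1 -193 to -186, and in Psat1 -136 to -129. Atf3 holds one at -110 to -103 and the CRE-type match at -10 to -3, and Trib3 holds TGGTGCAA at -33 to -26 and the other match at 15 to 22. The windows of Atf4, Ddit3, Ddit4, Phgdh and Sesn2 held none of the 3 spellings, which says only that these letters are absent there. The searched letters do not overlap each other in these windows.
Asns, chr6:7693160-7693459, minus strand: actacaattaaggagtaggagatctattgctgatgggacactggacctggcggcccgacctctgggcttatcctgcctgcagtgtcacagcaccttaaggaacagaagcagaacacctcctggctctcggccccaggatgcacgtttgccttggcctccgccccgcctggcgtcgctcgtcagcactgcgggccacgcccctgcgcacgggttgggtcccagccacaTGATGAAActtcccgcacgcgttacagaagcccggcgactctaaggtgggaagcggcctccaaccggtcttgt
Chac1, chr2:119350992-119351291, plus strand: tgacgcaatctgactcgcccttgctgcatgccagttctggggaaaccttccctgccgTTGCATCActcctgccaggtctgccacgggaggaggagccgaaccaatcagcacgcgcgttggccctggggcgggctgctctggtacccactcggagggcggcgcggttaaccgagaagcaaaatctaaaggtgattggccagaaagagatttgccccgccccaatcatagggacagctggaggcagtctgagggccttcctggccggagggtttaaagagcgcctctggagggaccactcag
Atf3, chr1:191183284-191183583, minus strand: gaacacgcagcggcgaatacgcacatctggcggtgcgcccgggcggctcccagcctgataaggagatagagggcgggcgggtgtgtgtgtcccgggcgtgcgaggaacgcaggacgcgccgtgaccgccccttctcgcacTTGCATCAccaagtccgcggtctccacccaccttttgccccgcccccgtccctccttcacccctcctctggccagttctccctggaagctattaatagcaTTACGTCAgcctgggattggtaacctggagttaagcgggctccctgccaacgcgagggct
Psat1, chr19:15925010-15925309, minus strand: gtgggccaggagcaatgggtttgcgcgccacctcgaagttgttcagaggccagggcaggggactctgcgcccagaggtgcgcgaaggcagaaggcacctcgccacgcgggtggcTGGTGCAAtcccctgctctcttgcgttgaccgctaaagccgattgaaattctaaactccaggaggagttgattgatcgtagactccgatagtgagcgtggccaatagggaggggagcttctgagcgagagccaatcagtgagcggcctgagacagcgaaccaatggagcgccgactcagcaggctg
Trib3, chr2:152344011-152344310, minus strand: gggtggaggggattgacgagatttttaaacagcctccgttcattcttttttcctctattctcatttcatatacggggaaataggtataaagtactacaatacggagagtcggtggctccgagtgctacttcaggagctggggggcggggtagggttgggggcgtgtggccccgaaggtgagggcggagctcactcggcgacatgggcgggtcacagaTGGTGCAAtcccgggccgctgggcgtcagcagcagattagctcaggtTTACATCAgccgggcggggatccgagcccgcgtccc

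Smarcb1 itself checked the labels. Its log2 signal was 4.61 with empty vector and 7.83 with Smarcb1 in line 167, and 6.01 and 9.61 in line 365. Both empty-vector arrays thus lay above the level of log2 4.27 used below as a filter, that of line 365 by more than that of line 167, and which exons the probes cover is not known here. The mean increase of 10.6-fold passed the test in limma (adjusted p = 0.0371), a model of log2 values fitted over all genes. All values below are log2 probe set signals or differences between them. The fit used the 13956 genes whose mean signal reached log2 4.27, all 10 stress genes among them, with a term for the line and a term for the vector. Its residual has 1 degree of freedom, which is how far the lines diverge in their response, and the standard errors (SE) are moderated across genes. The labels name no repeat cultures, so p-values measure only the spread between these arrays. In RNA of whole cultures, fewer expressing cells and less RNA per cell cannot be told apart. Soft tissue identity was checked with 8 mesenchymal markers, whose mean signal was 8.98 and 9.94 in line 167 and 7.66 and 7.71 in line 365 (empty vector, then Smarcb1). Of 14 markers of other cell types, between 8 and 10 reached log2 4.27 per array, with means of 4.80 to 5.34. The leukocyte marker Ptprc and the epithelial marker Epcam stayed below that level on all 4 arrays, while the epithelial genes Cdh1, Krt8 and Krt18 lay above it on all 4, at 4.57 to 6.04. The leukocyte marker Cd3e also lay above it on all 4, at 4.76 to 5.22. So did the skeletal muscle markers Myod1, at 4.30 to 4.71, and Des, at 4.82 to 5.16, while the muscle marker Myog was at 3.87 to 4.29. Cd68, a lysosomal protein gene used as a macrophage marker, was at 9.32 and 8.69 in line 167 and at 9.95 and 8.18 in line 365, with empty vector and Smarcb1. It thus differed by -0.64 and -1.78 with Smarcb1 (limma adjusted p = 0.273), and its part in the results for the stress genes was not tested.

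Line 365 had higher signal for Atf4 and for the genes of amino acid enzymes than line 167, with either vector. Asns, Psat1, Phgdh and Atf4 were 1.73-fold to 2.13-fold higher in line 365 as a mean over both vectors. Ddit4 went the other way and was 2.07-fold lower in line 365. These 5 of 10 genes passed the test between the lines, 4 higher and 1 lower. Over all tested genes, 10.9% passed in this comparison, 5.31% higher in line 365 and 5.64% lower. The lines also differed in marker genes. Of 8 mesenchymal markers, 3 passed as lower in line 365 and 1 as higher, S100a4 (0.76 ± 0.13, limma adjusted p = 0.0341). Vim and Pdgfra differed by -0.10 and -0.25 and did not pass. The collagen gene Col3a1 was at 11.12 and 11.65 in line 167 and at 6.14 and 6.24 in line 365. The others that passed as lower were Pdgfrb, at 8.95 and 9.36 against 5.12 and 5.03, and Col1a2, at 7.02 and 8.76 against 5.75 and 5.75. The cadherin gene Cdh5, listed as an endothelial marker, was at 3.78 and 3.64 against 9.06 and 8.29, while the other endothelial markers Pecam1, Tek and Kdr lay between 3.75 and 4.80 on all arrays of both lines. The part of these marker differences in the results for the stress genes was not tested.

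**Figure D1:**
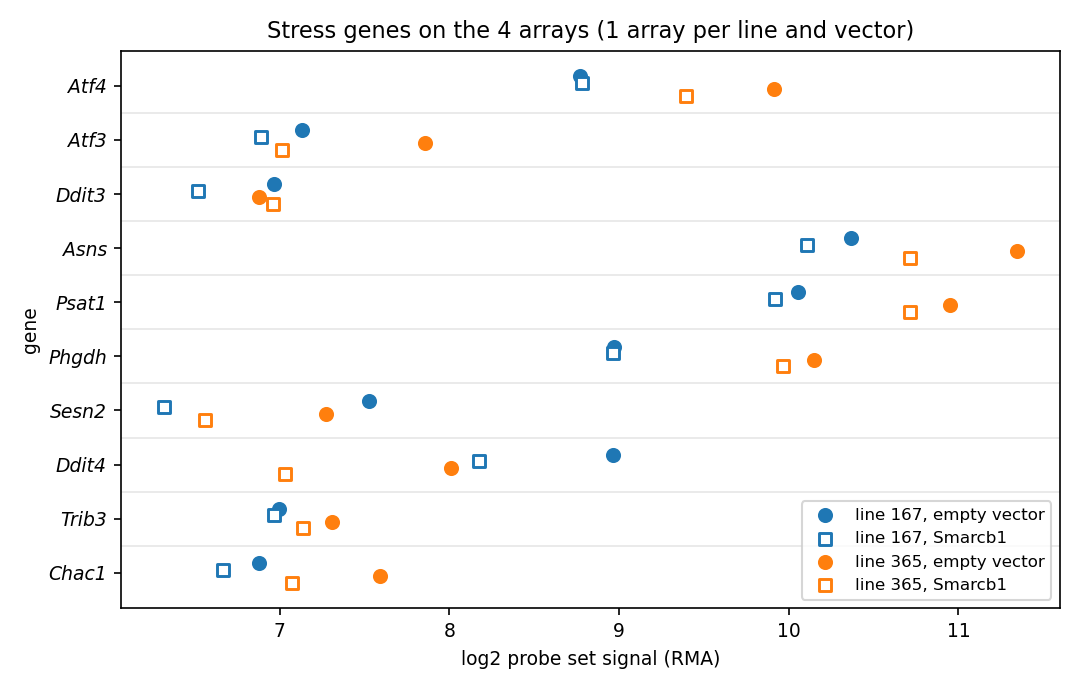
Log2 probe set signal (horizontal axis) of the 10 stress genes (rows) on the 4 arrays, blue for line 167 and orange for line 365, filled circles for empty vector and open squares for Smarcb1. Both orange points lie right of both blue ones for Atf4, Asns, Psat1, Phgdh, Trib3 and Chac1 and left of them for Ddit4, while open squares lie left of the circles of both lines' own colour for 8 of the 10 genes.

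Among the 3 transcription factors, only Atf4, the activator of the pathway, passed between the lines. Its signal was 8.77 with empty vector and 8.78 with Smarcb1 in line 167, and 9.91 and 9.39 in line 365. Both line 365 arrays lay above both line 167 arrays, and the mean difference was 0.87 ± 0.18 (SE; limma adjusted p = 0.0496). That call ended without the intensity trend in the variance model (adjusted p = 0.0689) and with the vector left out of the model (0.0941), and adjusted p ranged from 0.0294 to 0.0941 over all settings. Atf3, a stress-induced repressor, was at 7.13 and 6.89 in line 167 and at 7.86 and 7.01 in line 365. Its line 365 array with empty vector stood highest, and the other 3 arrays lay close together. The line difference of 0.42 ± 0.23 did not pass (limma adjusted p = 0.285). Ddit3, whose product CHOP promotes cell death in lasting ER stress, was at 6.97 and 6.52 in line 167 and at 6.88 and 6.96 in line 365. Its lines overlapped, with a difference of 0.18 ± 0.22 (limma adjusted p = 0.653).

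All 3 amino acid synthesis genes were higher in line 365. Asns encodes asparagine synthetase, which makes asparagine from aspartate and glutamine, and its signal was 10.36 and 10.11 in line 167 and 11.35 and 10.71 in line 365. The mean difference was 0.79 ± 0.14 (limma adjusted p = 0.0353), larger with empty vector (0.98) than with Smarcb1 (0.60), and that gap has no test. As for Atf4, the call ended without the intensity trend (adjusted p = 0.0669) and without the vector in the model (0.141), within a range of 0.0183 to 0.141 over the settings. Phgdh encodes the first enzyme of serine synthesis from a glycolytic intermediate, and its signal was 8.97 and 8.96 in line 167 and 10.15 and 9.97 in line 365. Its difference of 1.09 ± 0.13 (limma adjusted p = 0.0166) was the widest of the 10 genes. Psat1 encodes the aminotransferase of the next step, with 10.06 and 9.92 in line 167 and 10.95 and 10.72 in line 365, a difference of 0.84 ± 0.11 (limma adjusted p = 0.0200). For these enzymes both line 365 arrays lay above both line 167 arrays, and the calls of Phgdh and Psat1 held in all 7 alternatives for this comparison. A further probe set, shared between Phgdh and the predicted gene Gm6756, gave 8.36 and 8.45 in line 167 and 9.47 and 9.54 in line 365.

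Trib3 and Chac1 had smaller line differences than the genes that passed. Trib3, a pseudokinase that restrains ATF4 and AKT signalling, was at 7.00 and 6.97 in line 167 and 7.31 and 7.14 in line 365, a difference of 0.24 ± 0.18 (limma adjusted p = 0.444). Chac1, which encodes an enzyme that breaks down glutathione, was at 6.88 and 6.66 in line 167 and 7.59 and 7.08 in line 365. Its difference of 0.56 ± 0.19 did not pass (limma adjusted p = 0.135), although its lines did not overlap. In all, both line 365 arrays lay above both line 167 arrays for 6 of the 10 genes, and 26.7% of tested genes had this pattern. The opposite pattern was found for Ddit4 alone among the 10 genes, and for 29.1% of tested genes.

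The pair of genes that restrain the growth kinase complex mTORC1 differed from the enzymes and from each other. Ddit4 (also called REDD1), which acts through the TSC complex and also responds to hypoxia and glucocorticoids, was at 8.97 and 8.18 in line 167 and 8.01 and 7.03 in line 365. Each line 365 array was below both line 167 arrays, with a difference of -1.05 ± 0.17 (limma adjusted p = 0.0285). With the vector left out of the model this call ended (adjusted p = 0.227, in a range of 0.0150 to 0.227 over the settings). Sesn2, which encodes a leucine sensor that acts through the GATOR complexes, was at 7.53 and 6.32 in line 167 and 7.28 and 6.56 in line 365. The lines overlapped for Sesn2, with a mean difference of -0.0051 ± 0.22 (limma adjusted p = 0.991).

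**Figure D2:**
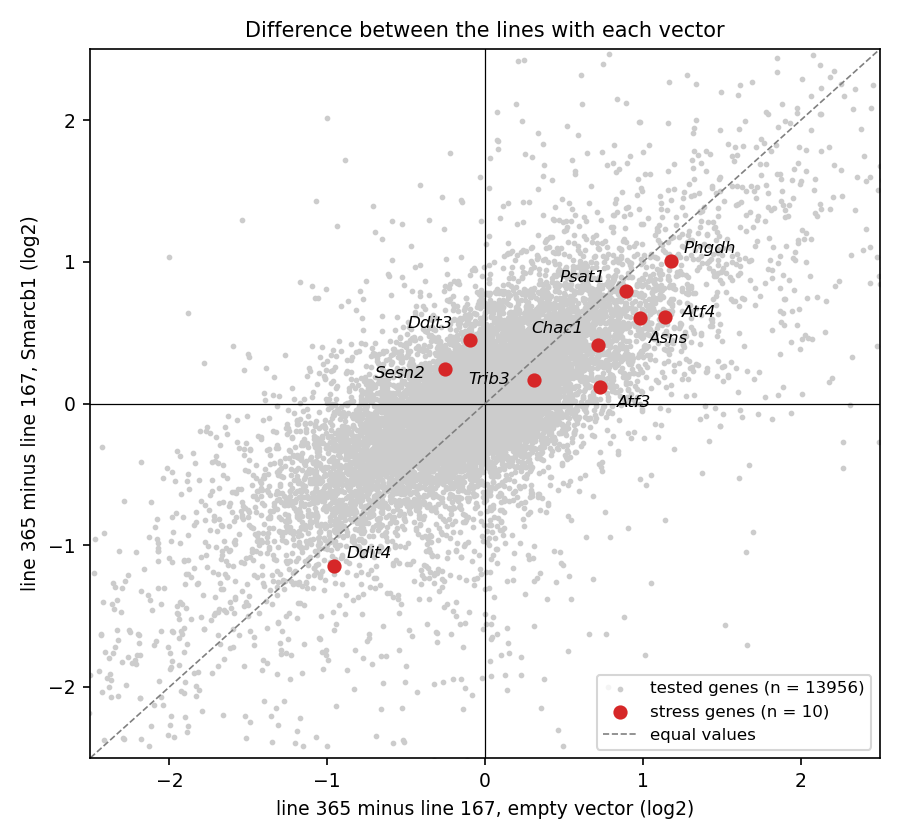
Line 365 minus line 167 with empty vector (horizontal axis, log2) against the same difference with Smarcb1 (vertical axis, log2) for the 10 stress genes (red) and all 13956 tested genes (grey). The arrays on the axes are not shared, the dashed line marks equal values, and 344 tested genes lie outside the axes; Atf4, Asns, Psat1 and Phgdh lie at 0.60 or higher on both axes and Ddit4 at -0.96 or lower.

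As a group, the 10 genes had a median line difference of 0.72 with empty vector and 0.43 with Smarcb1, beside -0.03 and 0.0038 for all tested genes. With empty vector 6 genes were at least 1.5-fold higher in line 365 and 1 lower, where 12.2% and 16.5% of tested genes were. With Smarcb1 the counts were 4 and 1, against 11.5% and 11.3%. Atf3 and Chac1 made the difference between these counts, at 0.73 and 0.72 with empty vector and 0.12 and 0.41 with Smarcb1.

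No stress gene passed the test of Smarcb1 against empty vector. The limma fit called 0 of 10 genes, 0.0645% of tested genes passed, all of them higher with Smarcb1. That share rests on 9 genes, a count that ran from 0 with the cell line left out of the model to 101 with a stricter filter, while the count of stress genes stayed at 0. At an unadjusted level of 0.05 the limma fit held Ddit4, Asns and Sesn2, all lower, where 11.6% of tested genes reached that level in either direction and 5.68% as lower. Fitted values were below 0 for all 10 genes, from -0.09 for Phgdh to -0.96 for Sesn2. Their median was -0.31. The median over all tested genes was itself below 0, at -0.03, so a majority of tested genes had that sign. In both lines, 8 of the 10 had lower signal with Smarcb1, and 34.1% of tested genes did. The 8 include Phgdh, which differed by only -0.0063 in line 167. The further probe set shared between Phgdh and Gm6756 was higher with Smarcb1, by 0.09 in line 167 and 0.07 in line 365. Only Atf4 and Ddit3 had opposite signs in the lines, as did 39.8% of tested genes.

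Sesn2 and Ddit4, the mTORC1 inhibitors, had the lowest values with Smarcb1. Sesn2 was 2.31-fold lower in line 167 (-1.21) and 1.64-fold lower in line 365 (-0.72), and both Smarcb1 arrays lay below both empty-vector arrays. The mean was -0.96 ± 0.22 (limma adjusted p = 0.240), the 102nd lowest of the 13956 fitted values. Ddit4 was 1.73-fold lower in line 167 (-0.79) and 1.97-fold lower in line 365 (-0.98), with a mean of -0.88 ± 0.17 (limma adjusted p = 0.181). Its line 167 array with Smarcb1 stood above the line 365 array with empty vector, so the vector groups overlapped. These were the 2 genes at least 1.5-fold lower in both lines, a pattern of 1.35% of tested genes.

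**Figure D3:**
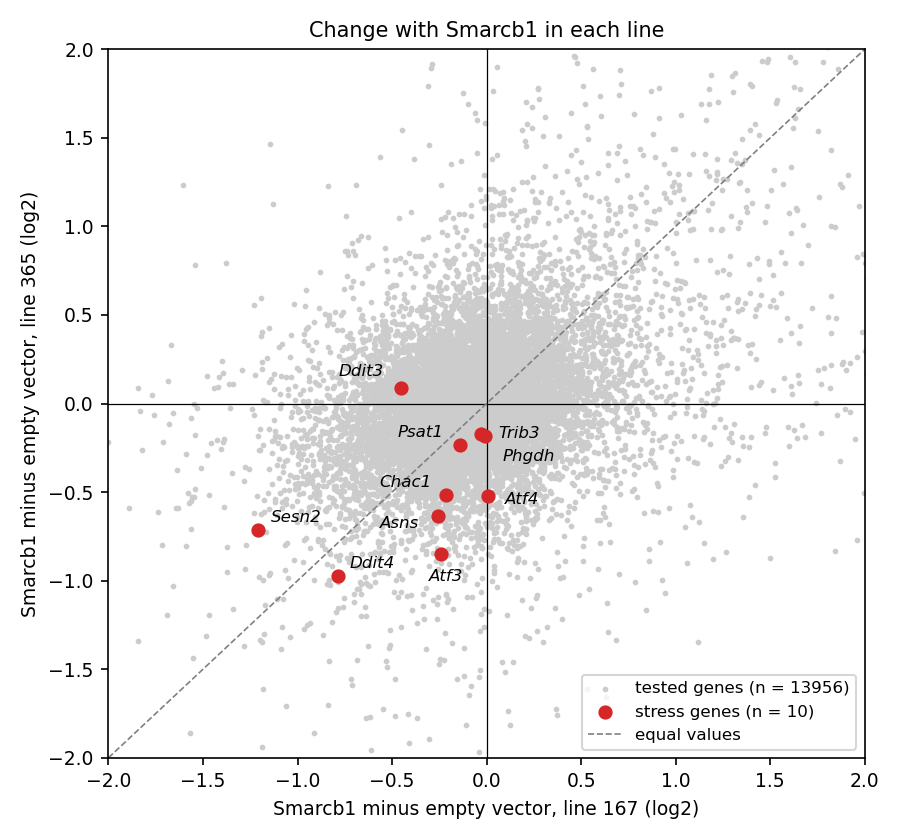
Smarcb1 minus empty vector in line 167 (horizontal axis, log2) and in line 365 (vertical axis, log2) for the 10 stress genes (red) and all 13956 tested genes (grey), 1 array per line and vector. No array is shared between the axes, the dashed line marks equal values and 223 tested genes lie outside the axes; Sesn2 and Ddit4 lie farthest to the lower left, and 8 red points lie below 0 on both axes.

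None of the 3 transcription factors passed between the vectors. Atf3 was lower by 0.24 in line 167 and by 0.85 in line 365 (mean -0.54 ± 0.23, limma adjusted p = 0.460), and both Smarcb1 arrays lay below both empty-vector arrays. That pattern held for Atf3 and Sesn2 among the 10 genes, and for 15.5% of tested genes. Atf4 differed by 0.01 in line 167 and by -0.52 in line 365 (mean -0.25 ± 0.18, limma adjusted p = 0.635). Ddit3 differed by -0.45 in line 167 and by 0.09 in line 365 (mean -0.18 ± 0.22, limma adjusted p = 0.786). Whether the lines respond differently has no test, because 1 array stands for each line and vector.

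Among the enzymes, Asns had the largest difference with Smarcb1, -0.26 in line 167 and -0.63 in line 365 (mean -0.44 ± 0.14, limma adjusted p = 0.349). Psat1 differed by -0.14 and -0.23 (mean -0.19 ± 0.11, limma adjusted p = 0.583), and Phgdh by -0.0063 and -0.18 (mean -0.09 ± 0.13, limma adjusted p = 0.822). Chac1 differed by -0.21 and -0.52 (mean -0.36 ± 0.19, limma adjusted p = 0.543) and Trib3 by -0.03 and -0.17 (mean -0.10 ± 0.18, limma adjusted p = 0.865). In 8 of the 10 genes, all but Ddit3 and Sesn2, the value in line 365 was the lower one, as for 44.1% of tested genes. The group median was -0.23 in line 167 and -0.52 in line 365, beside -0.06 and -0.0059 for all tested genes. For each gene, the gap between its values in the lines equals the gap between its line differences with Smarcb1 and with empty vector. The gap between these medians and that between the medians of the line differences above are thus not separate results. Line 365 with empty vector was the highest array for Atf3, Atf4, Asns, Trib3, Chac1, Psat1 and Phgdh, and line 167 with empty vector for Ddit3, Ddit4 and Sesn2. At least 1.5-fold lower were 2 of 10 in line 167 (7.80% of tested genes) and 4 of 10 in line 365 (4.75%), the latter being Atf3, Ddit4, Asns and Sesn2. No gene of the 10 was 1.5-fold higher in either line, against 6.93% and 6.49% of tested genes.

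Related genes were read from 11 lists, which were drawn up with earlier results of these data known and hold 157 different tested genes beside the 10. Of these 157, the limma fit called 17 higher and 7 lower in line 365, and 0 between the vectors. The shares to read these and the list counts against are those of all tested genes, 5.31% higher and 5.64% lower in line 365 and 0.0645% between the vectors. Serine, glycine and one-carbon enzymes, which lie downstream of Phgdh and Psat1 or use the serine made there, had 5 of 14 higher in line 365 and 0 lower, with a median difference of 0.35. Shmt2, the mitochondrial serine hydroxymethyltransferase, was higher by 1.58 ± 0.15 (limma adjusted p = 0.0103). Gldc, the glycine decarboxylase, was higher by 1.79 ± 0.28, Mthfd1, a folate enzyme, by 1.18 ± 0.17, and Psph, the final enzyme of serine synthesis, by 1.00 ± 0.20 (limma adjusted p = 0.0484). Amt of the same list was lower in line 365, by -0.87 with empty vector and -0.75 with Smarcb1, without passing (limma adjusted p = 0.0614). Psph also differed by -0.39 and -0.76 with Smarcb1, and Shmt1, the cytosolic serine hydroxymethyltransferase, by -0.82 and -0.92 (limma adjusted p = 0.161), without passing. Aldh1l2, a mitochondrial folate enzyme gene of the same list, differed the other way, by 0.85 and 0.46 (limma adjusted p = 0.289).

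Amino acid transporters under ATF4 had 4 of 10 higher in line 365 and 0 lower. Slc7a11, the cystine importer, was higher by 1.68 ± 0.18 (limma adjusted p = 0.0133), and Slc7a1, which carries arginine and lysine, by 1.49 ± 0.15. The leucine transporter gene Slc7a5 was higher by 0.93 ± 0.13 and the glutamine transporter gene Slc1a5 by 0.90 ± 0.15. With Smarcb1, Slc7a5 differed by -0.43 and -0.64 (limma adjusted p = 0.280). Cytosolic aminoacyl-tRNA synthetases, which charge transfer RNA, had 3 of 18 higher in line 365 and 0 lower, namely Mars1 (1.43 ± 0.16), Wars (1.33 ± 0.17) and Cars (0.79 ± 0.13), the methionine, tryptophan and cysteine enzymes. In this list 12 of 18 were lower with Smarcb1 in both lines, where 34.1% of tested genes were, with 0 calls and a median of -0.18 (-0.03 over all tested genes).

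Other lists of the stress network held calls in both directions or none. Further ATF4 target genes split, with 1 of 19 higher in line 365 (Cth, which makes cysteine from cystathionine, 1.11 ± 0.19) and 3 lower, among them Ndrg1, a stress- and hypoxia-responsive gene (-2.19 ± 0.30), and Map1lc3b, an autophagy gene (-1.22 ± 0.13). With Smarcb1, Ndrg1 differed by 3.22 and 2.09 (limma adjusted p = 0.0865) and the lipoprotein receptor gene Vldlr by 1.11 and 0.81 (limma adjusted p = 0.185), opposite in sign to the fitted values of the 10 stress genes. ER chaperones and folding enzymes, the arm that answers misfolded protein, had 3 of 18 higher and 1 lower. Higher were Hsp90b1 (GRP94; 0.75 ± 0.09), Sdf2l1 (1.22 ± 0.21) and Creld2 (0.91 ± 0.16), and the lower one, P4hb, named after its value was seen, is a disulfide isomerase gene (-0.43 ± 0.09). Sensors and regulators of the response had 0 of 15 called in either comparison. With Smarcb1, Nupr1, a stress-induced chromatin protein gene of that list, differed by 1.33 and 1.36 (limma adjusted p = 0.118), again opposite in sign to those fitted values. ER-associated degradation (12 genes) and heat shock genes (9 genes, 2 of them, Hspd1 and Hspe1, for the mitochondrial chaperonin) had 0 calls between the lines and between the vectors.

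Lists of relatives and partners held calls between the lines at 1 of 10, 1 of 14 and 2 of 20 genes, beside 10.9% of all tested genes. In the list of proline, aspartate and glutamine enzymes the called gene was the glutamine synthetase gene Glul, lower in line 365 (-0.83 ± 0.16). Of 14 relatives of the sestrin, tribbles, DDIT4 and CHAC genes and of the GATOR subunits, 1 passed between the lines, Sesn3, lower in line 365 (-1.42 ± 0.17), while Sesn2 differed by -0.0051. Trib2 differed with Smarcb1 by 1.61 and 2.13 (limma adjusted p = 0.0891) and Trib3 by -0.03 and -0.17. Among 20 bZIP partners of ATF3, ATF4 and CHOP, Fosl1, a subunit of AP-1, was higher in line 365 (2.22 ± 0.17) and Atf7 lower (-1.33 ± 0.17).

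**Figure D4:**
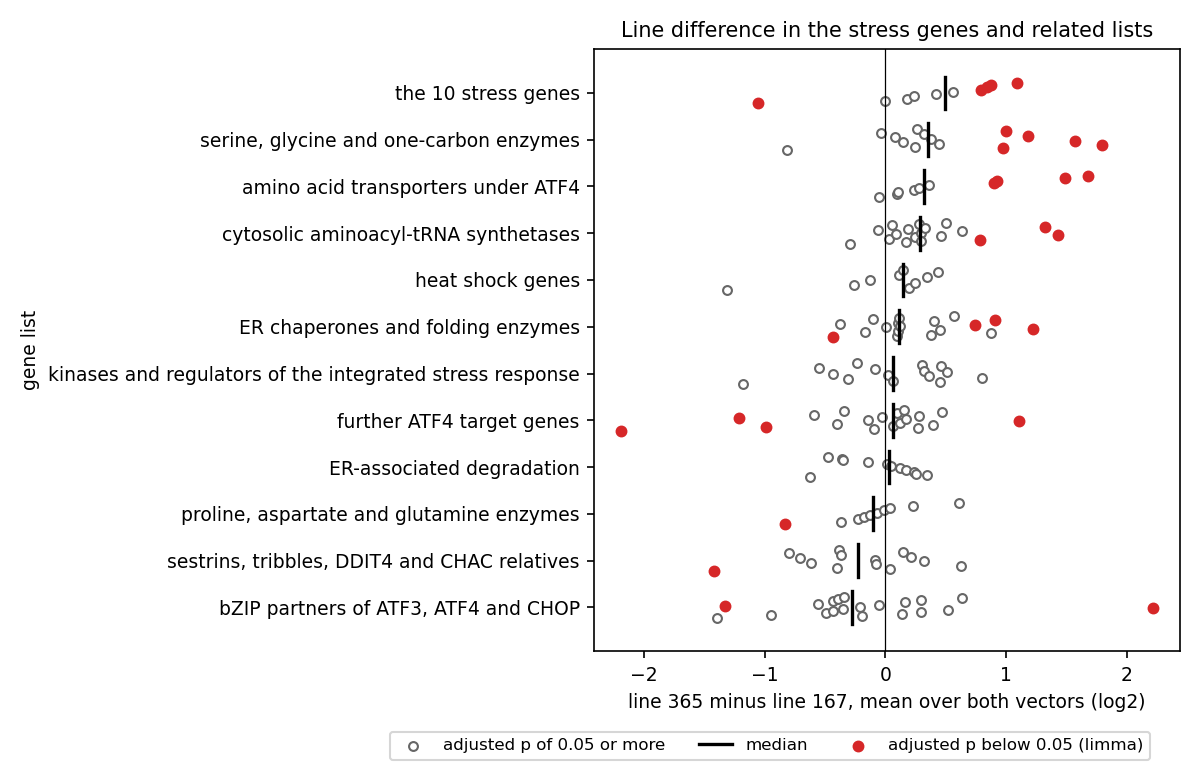
Line 365 minus line 167, as the mean over both vectors (horizontal axis, log2), for each tested gene (points) of the 11 related lists and of the 10 stress genes (rows, lists ordered by their median), with black bars for medians and filled red points for limma adjusted p below 0.05. Red points lie right of 0 in all called genes of the one-carbon, transporter and synthetase lists, and on both sides in the 10 stress genes, ER chaperones, further ATF4 targets and bZIP partners.

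Within the group, Atf4 and Asns had the most similar profiles over the 4 arrays, with a Euclidean distance of 0.22 between centred log2 values, followed by Atf4 and Psat1 (0.23) and Asns and Chac1 (0.25). Ddit4 and Phgdh were farthest apart, at 2.28. Of all tested genes with a proper name, Pip5k1a (0.03), Ap4b1 (0.04) and Slk (0.08) lay nearest to Atf4, and Tor2a, Fgfbp3 and Eed (0.04 to 0.05) nearest to Asns. Adi1 (0.05) and Nol8 (0.07) lay nearest to Sesn2, and Ppp1r12b (0.12) nearest to Ddit4. Psat1 lay nearest to Coq7 (0.05) and Phgdh to Neo1 (0.04). These distances are over 4 arrays and carry no test.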

How the data were processed

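RNA of 2 cell lines with 2 vectors was measured on 4 whole-transcript arrays. The table deposited by the authors holds log2 signals per probe set. Per the submitters' processing notes, RMA and Affymetrix Expression Console were used. RMA subtracts background, equalises the distributions of the arrays and joins the probes of a set, so a change of total RNA per cell cannot be seen. The sources used here give neither their versions and settings nor a genome build. Medians over the 35556 probe sets were 5.03 to 5.07.

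Of the probe sets, 21789 carry 1 gene symbol in the platform annotation, 1621 several, and 12146 are unlisted. The brightest per gene was kept (19938 genes), and genes below the 30th percentile of mean signal (log2 4.27) were left out, which left 13956. The fit (limma 3.58.1, R 4.3.3; lmFit with line and vector, eBayes with intensity trend, 3.75 prior degrees of freedom) was tested on simulated data. P-values are two-sided and Benjamini-Hochberg adjusted over tested genes, with a threshold of 0.05. The number of arrays limits the precision. The pairing is that of the lines: arrays of a line deviated together from their vector means (r = 0.770 across genes). Single-line changes have no test, and a 1.5-fold limit served for counts. The 10 genes and the lists were chosen with earlier results of these data known. Of 197 list entries, 182 matched a gene. Named genes are the 10, Smarcb1, up to 3 of smallest p per list and contrast, and nearest profiles. Further cell type markers, Amt, P4hb, Hspd1 and Hspe1 were named outside this rule. Alternatives changed the filter, normalization, trend, probe set rule and model terms.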

Additional observations from a re-analysis of the deposited data

Results flagged for a closer look

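For 2 of the 10 genes the values with Smarcb1 had opposite signs in the lines. Ddit3 differed by -0.452 in line 167 and by 0.087 in line 365. Atf4 differed by 0.00995 in line 167 and by -0.52 in line 365. These differences between the lines were not tested, since each rests on 1 array per line and vector, and 39.8% of tested genes have opposite signs.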

How the results depend on the processing

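Between the lines, 5 of the 10 genes passed as reported and in 5 of 7 alternatives. Without the intensity trend 3 passed, and with the vector left out of the model 2 passed, Psat1 and Phgdh. Over all genes the line comparison called 1528, and 653 with the vector left out. Between the vectors 0 of the 10 genes passed in any of 7 alternatives, while the count over all genes went from 9 to 48 with quantile normalization, 49 with cyclic loess, 68 with no filter, 101 when the filter stood at the 50th percentile, and 0 with no replicate block (the cell line not in the model, 450 genes at an unadjusted level of 0.05). So 135 of 140 gene-level values stayed on their side of the threshold and none changed sign. Most of the 140 belong to genes and comparisons without a call as reported, which could only gain one. Only quantile and cyclic loess normalization could change a fitted value or its sign, since the other alternatives leave fitted values the same. The 5 values that crossed the threshold lost their call, as given above for Atf4, Asns and Ddit4. Their fitted differences were the same in those settings, 0.87 for Atf4, 0.79 for Asns and -1.05 for Ddit4. What differed was the estimated error with its degrees of freedom, and so the p-values. Leaving out 1 array or 1 line leaves no residual degrees of freedom and was not run. Signals were 6.32 or higher on all arrays for the 10 genes, above the filter level of 4.27.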
